A study of Homo sapiens with 8 samples.

Results

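The GADD45 family was examined as 4 genes of the 19053 that were matched to a name on the array, namely GADD45A, GADD45B, GADD45G and GADD45GIP1, which were taken by symbol. The cells were A549, a lung carcinoma line of human origin in long use. In the first series they received vehicle, or an ethanol extract of Descurainia sophia seeds (EEDS) at 1.25, 5 or 20 μg/mL. In a second series, A549 cells received vehicle or helveticoside, a cardiac glycoside found in these seeds, at 3.75, 15 or 60 nM. The labels give an exposure of 48 h and the study's methods 24 h for the arrays. Each condition had 1 Agilent whole human genome array, hybridized with RNA pooled from 3 cultures of this cell line, so a ratio at a single dose has no replicate error and no p-value.

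The 3 GADD45 proteins are small, acidic and closely related stress sensors that are induced at the transcript level by DNA damage and other stress. They have no known enzyme activity and act by binding other proteins. GADD45 proteins bind the kinase MAP3K4 and switch on the p38 and JNK kinases, bind PCNA and the cell cycle kinase CDK1, and take part in DNA demethylation. GADD45A is the member best known from the response to DNA damage, GADD45B is known as an early gene of NF-kappa B and TGF-beta signaling, and GADD45G as a gene that is silenced in many tumors. GADD45GIP1 (also CRIF1) is no paralog. It was named as a protein that binds GADD45G, and it is a part of the large subunit of the mitochondrial ribosome.

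The promoters of 3 of the 4 members were matched in RefSeq (GRCh38.p14). Those of GADD45B and GADD45G are shown because both genes were higher at the top dose of both agents and both windows hold a TATA box near the start site. The 250 bases before the start site are given from 5′ to 3′ in the direction of the gene. They lie at chr19:2475877-2476126 (+) for GADD45B and at chr9:89604762-89605011 (+) for GADD45G. Capitals mark the motifs found.
GADD45B: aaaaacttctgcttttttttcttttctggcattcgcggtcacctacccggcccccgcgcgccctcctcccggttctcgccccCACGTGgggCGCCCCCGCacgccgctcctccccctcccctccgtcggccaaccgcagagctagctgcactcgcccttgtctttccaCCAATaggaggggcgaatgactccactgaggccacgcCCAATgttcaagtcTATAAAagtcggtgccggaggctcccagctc
GADD45G: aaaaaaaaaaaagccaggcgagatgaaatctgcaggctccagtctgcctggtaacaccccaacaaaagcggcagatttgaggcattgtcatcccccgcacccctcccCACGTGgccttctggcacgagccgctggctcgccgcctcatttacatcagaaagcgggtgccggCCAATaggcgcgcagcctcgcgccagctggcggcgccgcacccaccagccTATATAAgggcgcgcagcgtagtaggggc

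Both strands of these windows were searched for the E-box CACGTG, the CCAAT box, a TATA box written either as TATAAA or, in its longer form, as TATATAA, the AP-1 motif TGACTCA, the cyclic AMP response motif TGACGTCA, the EGR motif GCGGGGGCG and its other form GCGTGGGCG, and no match overlapped another. GADD45B held the E-box from 168 bases before the start site, the first EGR form on the reverse strand from 159 bases, a CCAAT box at 82 and 45 bases, and the shorter TATA box at 31 bases. GADD45G held the E-box at 143 bases, a CCAAT box at 79 bases and the longer TATA box at 29 bases. Of 35116 promoter windows of this length, 6.34% held the E-box, 32.0% a CCAAT box, 10.7% the shorter and 2.42% the longer TATA box, and 4.72% the first EGR form. The AP-1 motif (4.20% of all windows), the cyclic AMP motif (1.65%) and the second EGR form (0.720%) were not among the letters of these windows. The window of GADD45GIP1 held the shorter TATA box at 138 bases before the start site and none of the other motifs. The windows of GADD45B and GADD45G were chosen for their TATA box, and the motifs with the sequences in view. The shares over all windows therefore do not test whether a motif is more frequent in this family. A match of letters is a description of the window and not a site of binding.

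On the 8 arrays, 54.5% to 64.9% of the probes were called well above background by the scanner software, and no probe spot was saturated. The median SD between spots of probes with 5 or more spots was 0.069 to 0.085 (log2), a measure of the spread inside one array, and each member's probe had 1 spot. All 5 epithelial markers (KRT8, KRT18, KRT19, EPCAM and CDH1) and AKR1B10, AKR1C1, ALDH1A1 and NQO1, which are known to be high in A549, were well above background on all arrays. The log2 ratios of the epithelial markers at the top doses were at most 0.046 (EPCAM with EEDS) and lowest in CDH1 (-2.70 with EEDS and -2.71 with helveticoside), followed by KRT19 (-1.90 and -1.72). Of 7 markers of leukocytes, endothelium and fibroblasts, CD3E, PECAM1 and DCN were below this limit on every array, whereas PTPRC, CD79A, CDH5 and COL1A1 were above it on every array. The log2 ratios of these 7 at the top doses lay between -1.17 (CD79A with EEDS) and 0.80 (COL1A1 with EEDS), and the part of these markers in the results was not tested.

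GADD45A and GADD45B were strongly higher in the cells treated with the top dose of either agent, GADD45G was well above background on the 3 EEDS arrays and at 60 nM helveticoside but on neither control, and GADD45GIP1 stayed near its control. With EEDS, 2 of the 4 members were at least 2-fold higher than on the vehicle control at 1.25 μg/mL (4.22% of all 19043 genes compared), 3 at 5 μg/mL (7.34%) and 3 at 20 μg/mL (13.3%). With helveticoside, 0 members were at least 2-fold higher at 3.75 nM (3.38% of 19053 genes), 2 at 15 nM (7.08%) and 3 at 60 nM (10.8%). At the top dose of either agent, these 3 were GADD45A, GADD45B and GADD45G. With the signal as scanned or with normexp background correction, GADD45G was under 2-fold at 1.25 and 5 μg/mL EEDS and left the counts at these doses. At 60 nM helveticoside, its log2 ratio was then 1.01 and 1.0, close to the 2-fold limit. With the values that the authors deposited it was 0.90, and GADD45G left that count too. None of the members was 2-fold lower at any dose, while 3.66%, 8.47% and 14.5% of all genes were with the rising doses of EEDS and 4.31%, 8.06% and 12.8% with those of helveticoside. Signals below are log2 values of the background-corrected signal after quantile normalization over the 8 arrays, and a log2 ratio compares a treated array with the control of its own series.

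**Figure D1:**
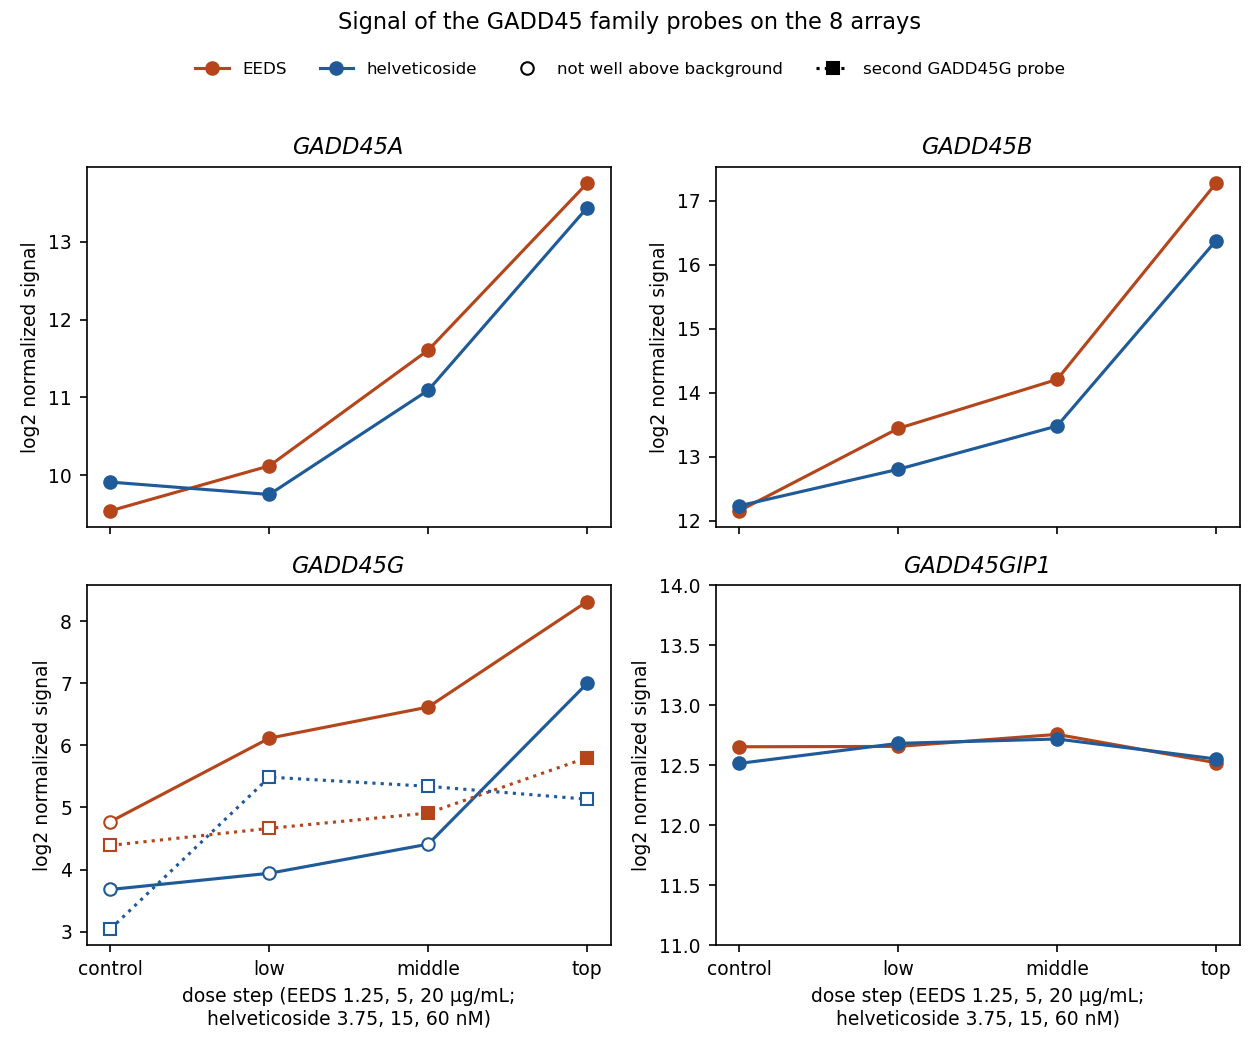
Log2 normalized signal (vertical axes, with a different range in each panel) of each member's probe at the vehicle control and the 3 doses (horizontal axis) of EEDS (orange) and helveticoside (blue), 1 array per point; open symbols were not well above background, and squares on dotted lines are the second probe of GADD45G. GADD45A and GADD45B climb most steeply between the middle and the top dose, whereas GADD45GIP1 stays between 12.52 and 12.76.

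GADD45B, the member known as an early NF-kappa B and TGF-beta gene, had a log2 signal of 12.16 on the EEDS control and 13.44, 14.21 and 17.27 at 1.25, 5 and 20 μg/mL. In the helveticoside series, its signal was 12.24 on the control and 12.81, 13.48 and 16.37 at 3.75, 15 and 60 nM. Every dose was above the dose before it in both series. The log2 ratios were 1.28, 2.05 and 5.11 with EEDS and 0.57, 1.24 and 4.14 with helveticoside, which is 34.5-fold and 17.6-fold at the top doses. Of 12966 genes that were well above background at 20 μg/mL EEDS and on its control, 8 had a larger log2 ratio than GADD45B. At 60 nM helveticoside, 7 of 11930 genes did. The last step, from the middle to the top dose, was 3.06 on the log2 scale with EEDS and 2.89 with helveticoside, whereas the steps before it were 1.28 and 0.76 with EEDS and 0.57 and 0.68 with helveticoside.

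GADD45A, the member best known from DNA damage, had a log2 signal of 9.54 on the EEDS control and 10.12, 11.61 and 13.75 at the rising doses of EEDS. In the helveticoside series, the signal was 9.91 on the control, 9.75 at 3.75 nM, 11.09 at 15 nM and 13.44 at 60 nM. The lowest helveticoside dose was therefore no higher than its control, and the other 5 treated arrays were. The log2 ratios were 0.58, 2.06 and 4.21 with EEDS and -0.16, 1.18 and 3.53 with helveticoside, which is 18.5-fold and 11.5-fold at the top doses. For both agents, 21 genes had a larger log2 ratio than GADD45A at the top dose. In contrast to GADD45B, the climb was spread over the middle and the top dose, with steps of 1.49 and 2.14 for EEDS and 1.34 and 2.35 for helveticoside.

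GADD45G, the member often silenced in tumors, was not well above background on either vehicle control. On its brighter probe, the log2 signal was 4.77 on the EEDS control and 6.12, 6.62 and 8.32 at the rising doses, and all 3 EEDS arrays were well above background. In this background-corrected signal, the gene was 2.54-fold, 3.59-fold and 11.7-fold higher than on the control. Where the control was too dim, the fold sets the treated array against the higher of the control's own signal and the lowest signal well above background on that array. On the EEDS control the probe's own signal was the higher (4.77 against 4.55). These 3 EEDS folds are therefore plain ratios and no lower limits under another background correction. In the helveticoside series, the signal was 3.68 on the control, 3.94 at 3.75 nM, 4.41 at 15 nM and 7.00 at 60 nM. Of these arrays, the one at 60 nM was well above background. There the gene was at least 2.72-fold higher in this background-corrected signal, which is no lower limit under another background correction. Its log2 ratio there was 1.0 with normexp and 0.90 with the values that the authors deposited. The second probe of GADD45G also climbed with EEDS, less steeply, and had another course with helveticoside. Its signal was 4.39 on the EEDS control and 4.66, 4.91 and 5.8 at the rising doses. It was well above background at 5 and 20 μg/mL EEDS, at least 1.28-fold and 2.38-fold higher, and on none of the helveticoside arrays, where its signal was 3.04 on the control and 5.49, 5.34 and 5.13 at the rising doses. The signal of the brighter probe also depended on the background correction. With the signal as scanned, its log2 ratio was 0.46, 0.66 and 1.72 at the rising doses of EEDS and 1.01 at 60 nM helveticoside, in place of 1.34, 1.84, 3.54 and 3.32 after background correction. With normexp, the ratios at 1.25 and 5 μg/mL EEDS were 0.54 and 0.76. In RNA pooled from cultures, a few cells with much transcript and many cells with little cannot be told apart.

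GADD45GIP1, the mitochondrial ribosome protein, had a log2 signal of 12.65 on the EEDS control and 12.66, 12.76 and 12.52 at the rising doses. Its signal was 12.52 on the helveticoside control and 12.68, 12.72 and 12.55 at 3.75, 15 and 60 nM. The treated and control arrays overlapped in the EEDS series, and in the helveticoside series the 3 treated arrays were slightly above the control. The log2 ratios at the top doses were -0.13 with EEDS and 0.037 with helveticoside. When arrays were scaled to the 75th percentile of their probes, the ratios were 0.13 and 0.32, while the median of all genes moved to -0.36 and -0.18. Before normalization, the background-corrected signal of this probe was 5500, 7620, 8110 and 9300 from the EEDS control to the top dose. In the helveticoside series it was 4610, 4260, 5350 and 5960. These values are not corrected for the brightness of the whole array.

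To compare the members without a drug, the 2 vehicle controls were set against each other. The helveticoside control was 0.37 higher than the EEDS control on the log2 scale for GADD45A, 0.078 higher for GADD45B and 0.14 lower for GADD45GIP1 (-0.14). For GADD45G the difference was -1.09, between 2 signals that were not well above background. The SD of this difference over 11491 genes well above background on all arrays was 0.48, with a median of -0.11. For GADD45A and GADD45B, the difference between the controls was small beside the top-dose ratios, and for GADD45A it was larger in size than the ratio at 3.75 nM helveticoside (-0.16).

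A dose trend was tested with limma, in which each gene had an intercept and a slope per dose step (control 0, then 1, 2 and 3) for each series over the 8 arrays, with 4 residual degrees of freedom. The error in this fit is the scatter of single arrays about their straight lines, since no condition was repeated. With EEDS, GADD45B rose by 1.61 per step (standard error 0.32, limma adjusted p = 0.0312), GADD45A by 1.41 (standard error 0.28, adjusted p = 0.0327) and GADD45G by 1.11 (standard error 0.26, adjusted p = 0.0460). These 3 members had a rising trend past the threshold of 0.05, as did 7.26% of the 19043 genes tested, and GADD45GIP1 had a slope of -0.030 (95% interval -0.17 to 0.11, limma adjusted p = 0.841). For GADD45G, the slope includes the control signal below the limit, and on the second probe it was 0.45 with a limma adjusted p of 0.358. The calls were lost when any 1 dose was left out: the limma adjusted p of GADD45A, GADD45B and GADD45G was 0.0987, 0.125 and 0.145 without the lowest dose, 0.113, 0.0953 and 0.0973 without the middle dose, and 0.215, 0.190 and 0.195 without the top dose. In each of these fits limma called 0 of the 19043 genes, so the loss was not particular to these members.

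With helveticoside, none of the members passed the threshold, whereas 5.46% of 19053 genes had a rising and 5.79% a falling trend. The slope was 1.31 for GADD45B (standard error 0.32, limma adjusted p = 0.0572), 1.19 for GADD45A (standard error 0.28, adjusted p = 0.0553) and 1.04 for GADD45G (standard error 0.26, adjusted p = 0.0624). For GADD45G, 3 of the 4 helveticoside arrays were not well above background, so its slope rests mostly on signals near background, and on the second probe it was 0.61 with a limma adjusted p of 0.235. The unadjusted p-values of GADD45B, GADD45A and GADD45G from limma were 0.00738, 0.00691 and 0.00874. The slope of GADD45GIP1 was 0.015 with a 95% interval from -0.12 to 0.15. The values of GADD45A and GADD45B lay close to the threshold. When limma was limited to the 11491 genes with a probe above that limit on every array, the same slopes had an adjusted p of 0.0136 for both genes, and 11.5% of these genes had a rising trend. With only the 4 arrays of a series, limma gave 0 genes past the threshold for either agent, while the unadjusted p was under 0.05 in 5338 genes with EEDS and in 4937 with helveticoside.

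**Figure D2:**
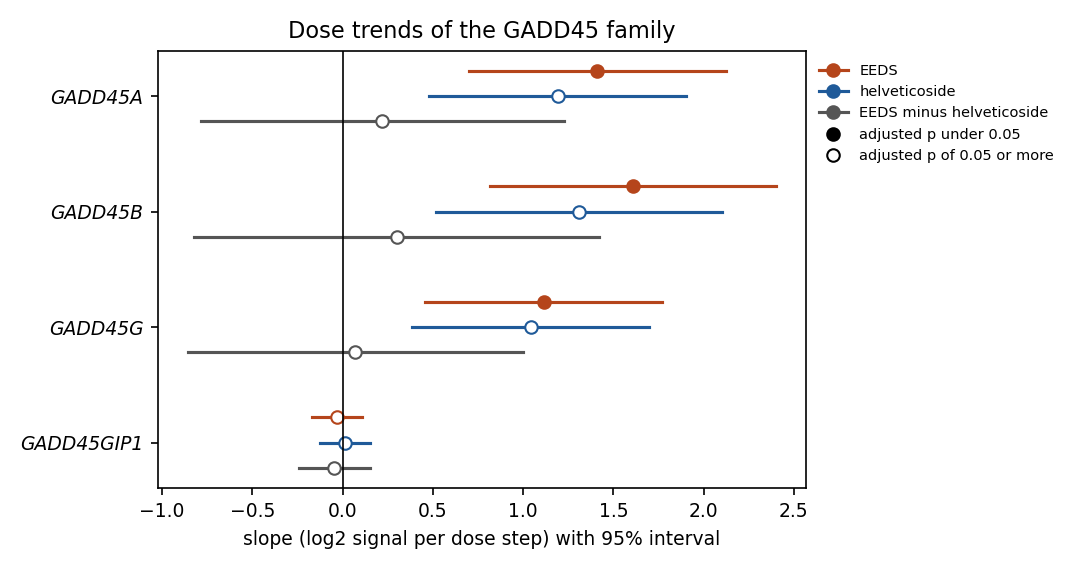
Slope of the log2 signal per dose step (horizontal axis) with its 95% interval from limma for each member, for EEDS (orange), helveticoside (blue) and their difference (grey); filled points had an adjusted p under 0.05. The intervals of all differences include 0, and those of GADD45GIP1 are the narrowest.

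Extract and pure glycoside were compared by the difference of their slopes in the same fit, since their doses are in different units and were not matched. The EEDS slope minus the helveticoside slope was 0.30 for GADD45B (95% interval -0.82 to 1.42), 0.22 for GADD45A (-0.79 to 1.23), 0.071 for GADD45G (-0.86 to 1.0) and -0.045 for GADD45GIP1 (-0.24 to 0.15). None of the 4 differences passed limma's adjusted threshold, nor did that of any other gene, while 525 genes (2.76%) had an unadjusted p under 0.05. For the 3 GADD45 genes, the width of each interval was larger than either slope, and a missing call does not show that extract and glycoside act alike.

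**Figure D3:**
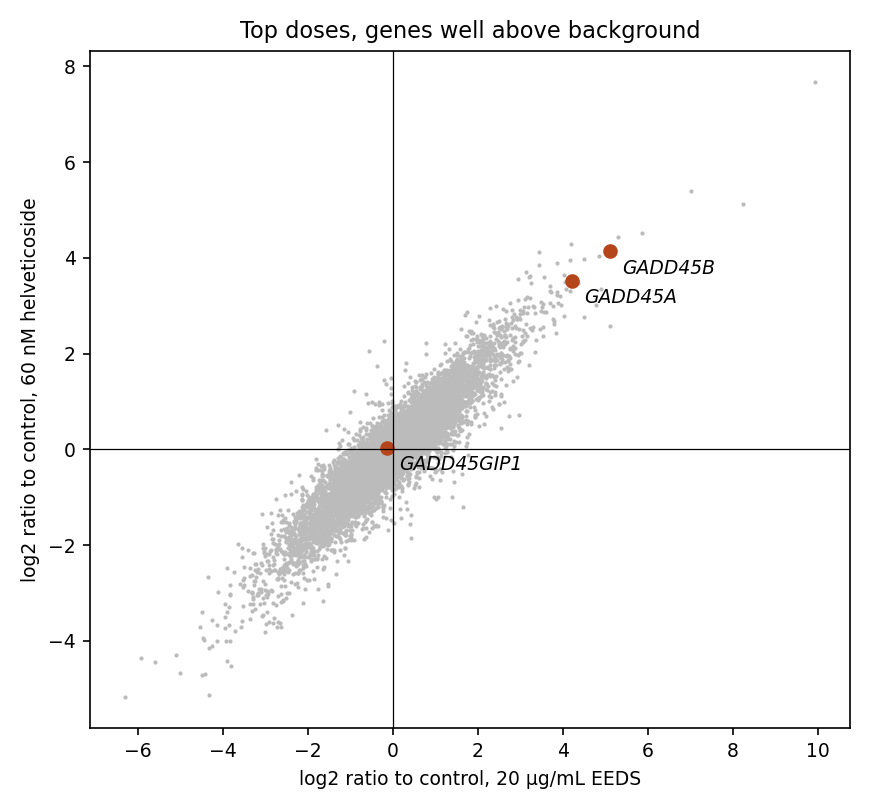
Log2 ratio to the vehicle control at 20 μg/mL EEDS (horizontal axis) and at 60 nM helveticoside (vertical axis) for the 11816 genes that were well above background on both controls and at both top doses (grey points), with the 3 members among them in orange. GADD45A (4.21 and 3.53) and GADD45B (5.11 and 4.14) lie far along the upper right arm, and GADD45GIP1 (-0.13 and 0.037) lies near the origin; GADD45G was not well above background on the controls and is not plotted.

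The genes whose 6 log2 ratios came closest to a member's were sought among 11490 other genes with a probe well above background on every array, by the root mean square difference over the 3 doses of both agents. For GADD45A, the 5 closest genes included MAP3K14 (0.38), the kinase of the non-canonical NF-kappa B pathway, DNAJB2 (0.45), NFKBIE (0.47), an inhibitor of NF-kappa B, and CCN1 (0.47), a matricellular protein. MAP3K14 had log2 ratios of 1.03, 2.23 and 3.77 with EEDS and -0.30, 1.52 and 2.99 with helveticoside. The genes were picked by these same ratios, so their likeness at a dose is no separate result. By Pearson r, 0 of the 5 genes closest to GADD45A remained among the 5 highest. For GADD45B, the closest were C3orf52 (0.27), CCN1 (0.50), the AP-1 subunit FOSL1 (0.52) and LCAT (0.55). C3orf52 had log2 ratios of 1.03, 2.37 and 5.10 with EEDS and 0.78, 1.73 and 4.21 with helveticoside. GADD45A and GADD45B differed by 0.61 from each other, and 6 genes were closer to GADD45B than GADD45A was. For GADD45GIP1, the closest genes were ADRA1A (0.037), GNA12 (0.042), CLPP (0.044), the mitochondrial matrix protease, NDUFS8 (0.049), a subunit of respiratory complex I, and CD99 (0.054). For a gene near its control at every dose, this measure finds other genes near their controls.

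Transcripts of proteins listed as GADD45 partners moved in both directions. The list takes in the p38-activating kinases MAP2K3 and MAP2K6, whose binding to GADD45 proteins was not examined here. All 17 listed genes were well above background on both controls and at both top doses. Of these, 7 had a rising and 3 a falling trend with EEDS by limma, beside 7.26% and 7.86% of all genes. With helveticoside, 4 rose and 2 fell, beside 5.46% and 5.79% of all genes. Those shares include dim genes. At 20 μg/mL EEDS, 6 partners were at least 2-fold higher and 2 lower, beside 1724 and 1872 of the 11816 genes well above background. At 60 nM helveticoside, 5 were higher and 2 lower, beside 1304 and 1536 of 11816. By that count, the falling share of the partners was near the background. The median log2 ratio of the partners at the top dose was -0.28 with EEDS and 0.17 with helveticoside, against 0.021 and -0.004 over all genes. CDKN1A, the p21 inhibitor of cyclin-dependent kinases, rose with both agents, with log2 ratios of 3.23 at 20 μg/mL EEDS and 2.52 at 60 nM helveticoside. The p38-activating kinases parted. MAP2K3 rose with both agents (3.02 and 2.19 at the top doses), whereas MAP2K6 fell with both (-3.73 and -2.55). MAP3K4, the kinase that GADD45 proteins bind directly, had log2 ratios of -0.28 and -0.12 and passed no test, as did p38 itself (MAPK14, -0.40 and -0.34). MAP2K7, the JNK kinase that GADD45B is known to inhibit, rose with both agents, to 0.98 and 0.88.

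Partners in DNA demethylation also parted. TDG, the thymine DNA glycosylase, rose with both agents (2.07 and 1.54 at the top doses), and TET1, which oxidizes methylcytosine, fell with both (-2.89 and -2.12). ING1, which recruits GADD45A to methylated histone tails, and the acetyltransferase EP300 rose with EEDS (1.70 and 1.17), and their values at 60 nM helveticoside were 1.11 and 1.10 without a trend past the threshold. Of the cell cycle partners, CDK1 rose with EEDS (1.47 at the top dose) and AURKA, a mitotic kinase, fell (-0.53). PCNA, the sliding clamp of DNA replication, had log2 ratios of -0.43 and -0.28, and CCNB1, the cyclin of CDK1, 0.62 and 0.54. Neither PCNA nor CCNB1 passed the threshold.

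**Figure D4:**
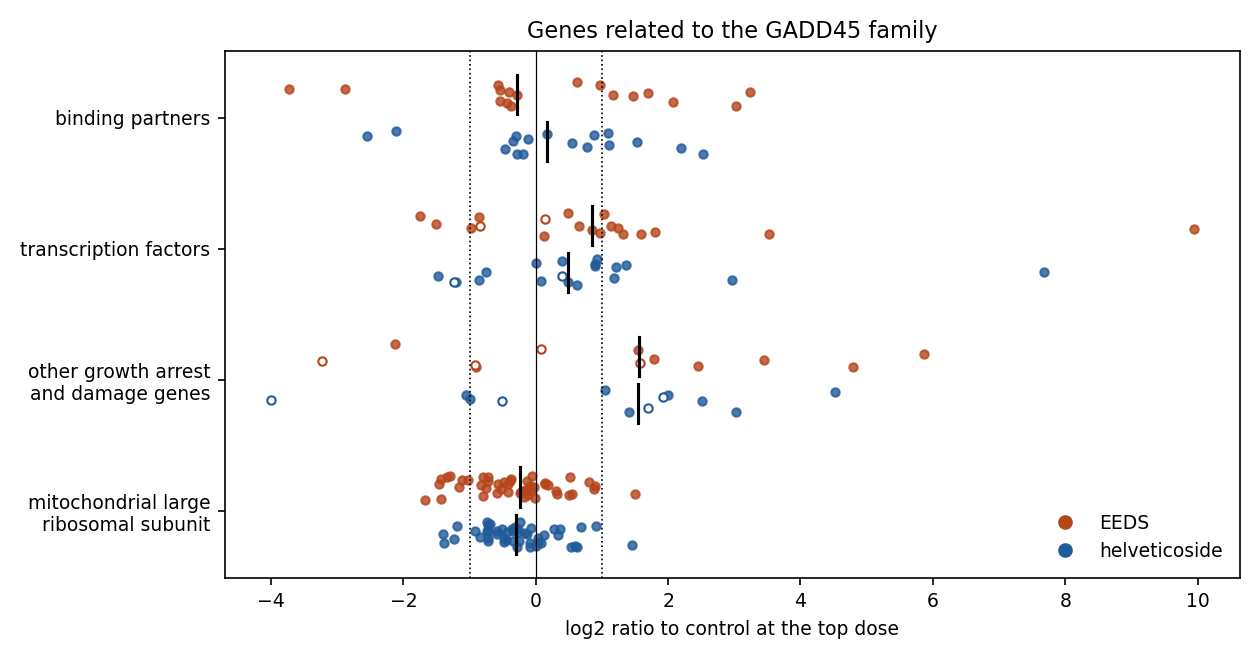
Log2 ratio to the vehicle control at the top dose (horizontal axis) of EEDS (orange) and helveticoside (blue) for 4 groups of related genes (rows), 1 point per gene; black bars are medians, dotted lines mark a 2-fold change, and open points were not well above background on all 4 control and top-dose arrays. The points of the other growth arrest and damage genes have the highest medians, 1.56 and 1.55, and the rightmost point is EGR1.

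Among 19 transcription factors described as acting on GADD45 genes, 4 rose and 1 fell with EEDS by limma, and 3 rose and 1 fell with helveticoside. The shares over all genes, dim ones included, were 7.26% rising and 7.86% falling with EEDS and 5.46% and 5.79% with helveticoside. By these shares, 1 falling gene of 19 is near the background. Their median log2 ratio at the top dose was 0.86 with EEDS and 0.49 with helveticoside, and 17 were well above background on both controls and at both top doses. The immediate early factor JUN rose with both agents (log2 ratios of 3.52 and 2.97 at the top doses), as did NFKB1 (1.81 and 1.36), the p50 subunit of NF-kappa B, and SMAD3 (1.31 and 1.18), which carries TGF-beta signals. EGR1 rose with EEDS to 9.94, and at 60 nM helveticoside it was at 7.68 with a limma adjusted p of 0.0560. CEBPA, a differentiation factor, fell with both agents (-1.75 and -1.47). Of the other factors, RELA, the p65 subunit of NF-kappa B, had 1.15 and 1.21 and BRCA1 -1.51 and -1.20, neither with a trend past the threshold. MYC, a repressor of GADD45A, had 0.86 and 0.62. FOXO3 had 0.48 and 0.40 and ATF4, the factor of the integrated stress response, 1.04 and 0.49. None of these 3 genes passed the threshold for either agent.

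The other genes of the growth arrest and DNA damage screens, with their relatives, had a median log2 ratio at the top dose of 1.56 with EEDS and 1.55 with helveticoside. Of 13 such genes, 12 were found, and 7 rose and 1 fell with EEDS, while 5 rose and 1 fell with helveticoside. Over all genes, dim ones included, 7.26% rose and 7.86% fell with EEDS and 5.46% and 5.79% with helveticoside. By these shares, 1 falling gene of 12 is near the background. On both controls and at both top doses, 8 were well above background. Of these 8, 6 were at least 2-fold higher and 1 lower at the top dose of either agent. Among 11816 genes well above background, 1724 were higher and 1872 lower with EEDS, and 1304 and 1536 with helveticoside. This list was also chosen with earlier results known, so these counts do not test for an excess. PPP1R15A (GADD34), which restores translation after stress, rose with both agents (5.86 and 4.52 at the top doses), as did PPP1R15B, its constitutive relative (1.79 and 1.41). DDIT3 (GADD153 or CHOP) rose with EEDS (4.79), and at 60 nM helveticoside it was at 3.02 with a limma adjusted p of 0.0710. The antiproliferative genes BTG1 (2.46 and 2.0) and BTG3 (1.55 and 1.05) rose with both agents, and BTG2 rose with EEDS (3.46) and was at 2.51 with helveticoside with a limma adjusted p of 0.0898. DDIT4, an inhibitor of mTOR complex 1, had a different course. Its log2 ratios were 0.89, 0.55 and -2.13 with EEDS and 0.41, 0.74 and -1.06 with helveticoside, above the control at the lower doses and below it at the top dose, with no trend past the threshold. DDIT4L fell and SESN1 rose with both agents, but neither was well above background on all 4 of the arrays compared.

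The mitochondrial ribosome, to which GADD45GIP1 belongs, had 48 large subunit genes on the array under MRPL symbols, all of them well above background. Of these, 11 fell and 1 rose with EEDS, and 8 fell and 1 rose with helveticoside by limma. Over all genes, 7.86% fell and 7.26% rose with EEDS, and 5.79% and 5.46% with helveticoside. Those shares include dim genes. At the top dose of EEDS, 1 subunit gene was at least 2-fold higher and 9 were lower. Among 11816 genes well above background, 1724 were higher and 1872 lower there. At the top dose of helveticoside, 1 subunit gene was higher and 4 lower, beside 1304 and 1536 of 11816. By that count, the falling share of the subunit genes was near the background with EEDS and below it with helveticoside. The median log2 ratio of the subunit genes at the top dose was -0.24 with EEDS and -0.30 with helveticoside. Their range was from -1.67 to 1.5 with EEDS and from -1.40 to 1.45 with helveticoside. MRPL40 fell with both agents (-1.44 and -1.40 at the top doses), as did MRPL20 (-1.29 and -1.38), and MRPL49 rose with both (1.5 and 1.45). MRPL17 and MRPL24 fell with EEDS (-1.67 and -1.34) and were at -1.19 and -1.24 with helveticoside. NR4A1, an orphan nuclear receptor described as bound by GADD45GIP1, had 2.05 and 1.38 with no trend past the threshold. The value of GADD45GIP1 lay within the range of the other subunits. The inner membrane insertase OXA1L, which receives the products of this ribosome, had -0.24 and -0.16.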

How the data were processed

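Transcripts of A549 cells were assayed on 8 one-colour Agilent arrays in 2 series of 4. The authors deposited scanner output per array, which holds an intensity for each spot: a processed signal with background removed, a median signal, a local background, and marks for outliers, saturation and spots well above background. A second table that the authors deposited holds 1 intensity per probe. Its ranks were those of the median signal less the local background, and its median was 120 to 121 on the EEDS and 192 on the helveticoside arrays, so it was scaled within each series.

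Here, spots marked as outliers were dropped, which removed 22 probes, and the remaining spots of a probe were averaged. The processed signal of 34105 probes was quantile-normalized over the 8 arrays. A probe whose median signal was under 1.4 times the local background was raised to the lowest signal above that limit, where it was lower, and values were put on the log2 scale. Through RefSeq accessions (GRCh38.p14), 24809 probes were matched to 19053 genes, and the brightest probe stood for its gene. GADD45A (A_23_P23221), GADD45B (A_24_P239606) and GADD45GIP1 (A_33_P3273148) had 1 probe, and GADD45G had 2 (A_33_P3252394, the brighter, and A_24_P120934). A gene entered the test of a series when it passed the 1.4 limit there on 1 array or more. Trends were tested in R 4.3.3 by limma 3.58.1, with statmod 1.5.0, using eBayes with its trend and robust options and Benjamini-Hochberg adjustment over all genes tested. The script was tested on simulated data. Tables were made with Python 3.11.15, numpy 2.4.6 and pandas 2.3.3.

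The members, the gene lists and the tests were chosen with earlier results of these data known, and the promoter motifs with the sequences in view. Named genes are the 4 members, list genes changed at least 2-fold in the same direction and well above background at both top doses (for the partners of GADD45GIP1, all such genes, in place of the 4 largest that had been planned), and the 5 genes closest to each member that was well above background on all arrays. Other list genes were named after their values were seen. Some genes that these rules name are not reported here. Alternatives covered background correction, scaling, the probe, outliers, floor, filters, limma settings, the arrays in the fit, the predictor, the control array and the measure of likeness. Without the floor, the slopes and ratios of the members and the trend counts were unchanged, so that alternative says nothing about stability.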

Additional observations from a re-analysis of the deposited data

How the results depend on the processing

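No paired analysis was possible because each condition had 1 array. The log2 ratios of GADD45A, GADD45B and GADD45GIP1 moved by less than 1.5-fold under every alternative tried, and those of GADD45A and GADD45B at the middle and top doses kept their sign. The EEDS slopes of GADD45A, GADD45B and GADD45G kept their direction, and all lost the limma call when arrays were left out. With only the 4 arrays of a series, they were 1.41, 1.61 and 1.11. Without the lowest dose they were 1.35, 1.61 and 1.14, without the middle dose 1.46, 1.73 and 1.17, and without the top dose 1.03, 1.02 and 0.92. These fits have 2 residual degrees of freedom, and limma called 0 genes on the whole array for either agent, with 3257 to 5398 at an unadjusted p under 0.05. Over all alternatives, the adjusted p of the EEDS slope ran from 0.00619 to 0.215 for GADD45A, 0.00564 to 0.19 for GADD45B and 0.00506 to 0.358 for GADD45G. The helveticoside slopes gained the call under several alternatives. For GADD45A and GADD45B, these were the signal as scanned (1.16 and 1.29), normexp (1.16 and 1.29), scaling to the 75th percentile (1.23 and 1.44), the deposited table (1.13 and 1.36), a filter for probes well above background on at least 1 or on all arrays (1.19 and 1.31 in both), and the dose as a share of the top dose (3.65 and 3.98 per full dose). For GADD45G, they were the 75th percentile (0.89), the mean of both probes (0.83), the filter on at least 1 array (1.04) and the dose share (3.31). The adjusted p of the helveticoside slope ran from 0.0136 to 0.383 for GADD45A, 0.0136 to 0.276 for GADD45B and 0.0247 to 0.427 for GADD45G. Beyond these, counts over all genes moved by over 1.5 times in the falling EEDS trends with the deposited table (2621 against 1496), in the falling helveticoside trends with the filter on at least 1 array (1678 against 1104), and with the dose share in the helveticoside trends (356 rising and 428 falling against 1040 and 1104) and the slope differences (3 against 0). Slope differences at an unadjusted p under 0.05 numbered 1033 with the deposited table, 906 with the dose share, 817 without the middle dose, and 195 and 96 with the filters on at least 1 and on all arrays, against 525. The causes were not tested.

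GADD45G depended most on the processing. Its EEDS slope was 0.45 on the second probe. Its log2 ratio at 20 μg/mL EEDS was 1.72 from the signal as scanned, 1.84 with normexp, 2.48 over both probes, 1.41 on the second probe and 4.64 against the other vehicle control. At 60 nM helveticoside, these were 1.01, 1.0, 2.70, 2.09 and 2.22, and 0.90 with the deposited table. The difference of its slopes changed sign over both probes (-0.046), on the second probe (-0.16) and with the dose share (-0.35). The slope of GADD45GIP1 changed sign with the 75th percentile (0.063) and without the top dose (0.052) for EEDS and with the dose share (-0.055) for helveticoside, never past the threshold. Of the 5 genes closest to GADD45A, GADD45B or GADD45GIP1, 0 remained among the 5 with the highest Pearson r. The numbers of list members changed 2-fold at a top dose stayed within 1.5 times under 5 alternatives added after seeing the data.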
